A study of Mus musculus with 12 samples.

Results

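The 10 genes described here encode the 5 subunits of NF-κB (*Nfkb1*, *Nfkb2*, *Rela*, *Relb* and *Rel*) and 5 of its inhibitors (*Nfkbia*, *Nfkbib*, *Nfkbie*, *Nfkbiz* and *Tnfaip3*). They were chosen by name as the factor itself and the feedback proteins that restrain it, with earlier results of these data known. All 10 were present among the 10697 genes measured. Transcripts were sequenced from their 3′ ends (QuantSeq 3′ FWD) in 12 libraries of primary mouse adult fibroblasts, 6 from cells given 100 µM thymol for 24 h and 6 from cells given the solvent DMSO for 24 h. Thymol is a phenolic monoterpene of thyme oil. Both groups came from WT mice of the C57BL6/j strain, as cells grown out of biopsies in high-glucose medium with serum. Thymol was the only treatment by which their labels differed. The numbers in the library names run in a block for each group, thymol before DMSO. Library order thus coincides with treatment, and its part in the results was not tested. The age of the mice was not given in the sources used here. Nothing in these sources said that the 6 libraries of a group came from separate cultures or animals, so p-values measure the spread between these libraries, which may be technical. Levels are log2 CPM, the base-2 logarithm of CPM, a gene's reads scaled to a library size common to all libraries. Reads come from the 3′ end of a transcript whatever its length, so levels were set side by side between genes without scaling by length. Reads are PCR products, so such comparisons between genes are approximate.

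NF-κB is a dimer of Rel family proteins. *Rela*, *Rel* and *Relb* encode the subunits that can activate transcription, while *Nfkb1* and *Nfkb2* encode precursors that are processed to subunits without an activation domain of their own. In resting cells IκB proteins, among them the products of *Nfkbia*, *Nfkbib* and *Nfkbie*, hold the dimers in the cytoplasm. An inflammatory signal leads to phosphorylation and destruction of IκB, and the released dimers switch on cytokine and chemokine genes in fibroblasts and macrophages alike. They also switch on *Nfkbia*, *Nfkbie* and *Tnfaip3*, whose products close the response down again, so transcript levels of these genes are widely used as a readout of the pathway.

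In these cells 1 of the 10 transcripts fell with thymol. *Nfkbia*, which encodes IκBα, the classical feedback inhibitor, fell by 14.6%, to 0.854 of its DMSO level (95% interval 0.787 to 0.926; limma, adjusted p = 0.0184). None of the 5 subunits passed the threshold of an adjusted p of 0.05. The other 4 inhibitors did not pass it either, and 2 of them had lower and 2 had higher means with thymol. Over the whole series 238 genes passed, which is 2.22% of genes, and 1.57% of genes passed as lower. At an unadjusted p under 0.05 the count was likewise 1 of the 10 members, against 11.8% of all genes. For no member did all 6 thymol values lie on one side of the 6 DMSO values, which was the case for 1.68% of all genes. The median change was -0.039 (log2) over the 10 members and 0.0026 over all genes. Because the members were chosen with earlier results of these data known, their counts are not independent evidence.

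The libraries held between 5435985 and 9049796 reads on the retained genes, and the highest total was that of thymol replicate 5. Of 18 listed fibroblast markers, 17 were measured. Their summed level was 20695 to 21985 CPM in DMSO and 19335 to 20760 CPM in thymol libraries, and 2 of them passed as lower. Of 20 listed macrophage markers, 19 were measured, with a summed level of 20408 to 22289 CPM in DMSO and 20563 to 24481 CPM in thymol libraries. Of these, 1 passed as higher and 1 as lower. Lists of 8 markers each for endothelial, epithelial, skeletal muscle and lymphoid cells had 2, 1, 2 and 0 members measured. The 2 muscle genes, *Des* and *Acta1*, summed to 132 to 159 CPM in DMSO and to 92.6 to 125 CPM in thymol libraries, and 1 of them passed as lower. Cultures labelled as fibroblasts thus carried macrophage markers at a summed level similar to that of fibroblast markers. Which of the cell types carried the NF-κB transcripts, and the part of cell makeup in the results below, was not tested. In bulk RNA fewer cells of a type and less RNA per cell cannot be told apart.

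*Nfkbia* was the most abundant of the 10 transcripts, above 94.7% of all genes. Its levels in the DMSO libraries, replicates 1 to 6, were 8.27, 8.05, 8.24, 8.25, 8.17 and 8.25. The thymol libraries had 7.89, 8.13, 8.07, 8.01, 7.83 and 7.93. All 6 thymol libraries lay below the DMSO mean, and 4 of them lay below the lowest DMSO library. The groups overlapped through DMSO replicate 2, whose level was under those of thymol replicates 2 and 3. The group means were 8.20 ± 0.081 for the control and 7.98 ± 0.11 for the treated libraries (SD, n = 6 per group), and the log2 fold change between them was -0.23 ± 0.059 (SE). These values rested on 1329 to 2422 reads per library. *Nfkbia* stood at rank 168 by p among the 10697 genes.

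The call on *Nfkbia* did not hold under every choice. Leaving out DMSO replicate 1, thymol replicate 5 or thymol replicate 6 gave adjusted p = 0.0542, 0.0585 and 0.0553 in limma, with changes of -0.22, -0.20 and -0.22. A variance estimated without the trend on expression level gave adjusted p = 0.208. An exact two-sided permutation test of the 12 values gave p = 0.00649, and 0.205 after adjustment over all genes. The smallest possible p of this test is 0.00216, and 0 of 10697 genes passed. Even a gene at that smallest p, such as *Cxcl2*, had adjusted p = 0.129 by permutation. The adjusted permutation test therefore cannot decide whether a call holds. The change was -0.30 between odd-numbered libraries and -0.16 between even-numbered ones, with limma's adjusted p = 0.104 and 0.460 for 3 libraries against 3, and the difference between these values was not tested. The labels name no batch. By the numbers in the library names, the odd-numbered libraries of each group come before its even-numbered ones. Odd and even thus coincide with library order within a group. Whether they mark a batch is not known.

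**Figure D1:**
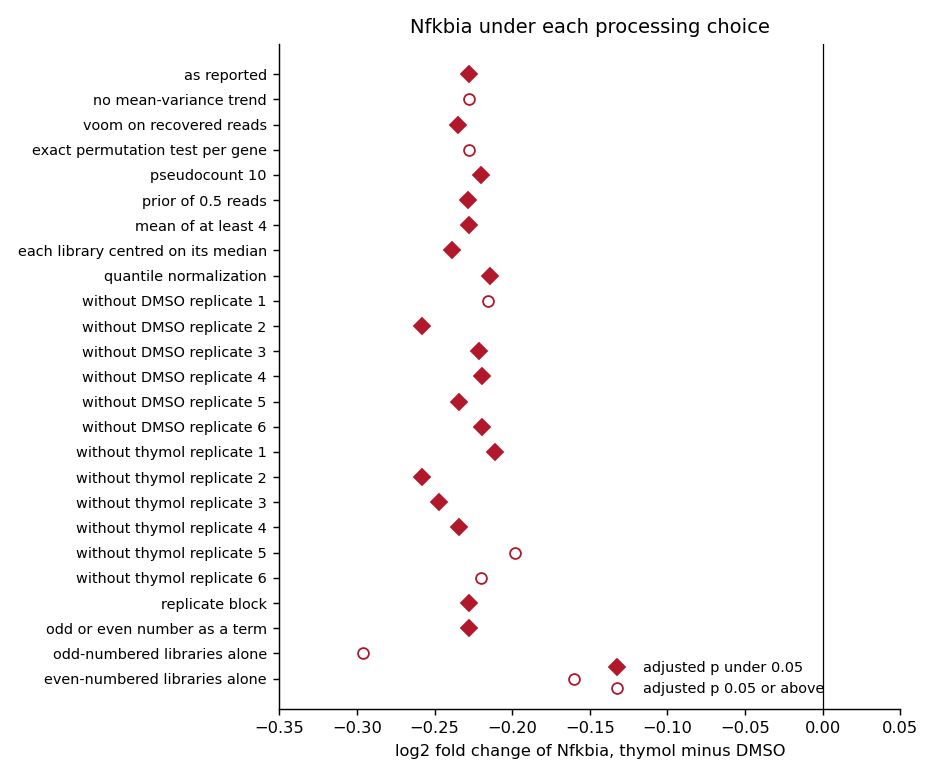
*Nfkbia* under each way of processing the data. Each row is a setting, the x axis is the log2 fold change (thymol minus DMSO), and filled diamonds mark an adjusted p under 0.05 and open circles one at or above it; the change was negative throughout, from -0.30 with odd-numbered libraries alone to -0.16 with even-numbered ones.

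Rel family dimers bind a short DNA element, the κB site. The 250 bases before the RefSeq start of each gene (build GRCm38.p6) were searched on both strands for the κB consensus, 10 bases long. A window was held for 7 of the members; *Nfkb1*, *Relb* and *Nfkbiz* had none. At least 1 match lay in a window of 5 of these 7 genes, *Nfkb2*, *Rel*, *Nfkbia*, *Nfkbie* and *Tnfaip3*, and no match in those of *Rela* and *Nfkbib*. Some genes have more than 1 window. Counted by gene, 8.23% of all genes with a window and 10.6% of those measured here held a match. Counted by window, the members had a match in 7 of 10, against 7.25% of all 32851 windows and 8.83% of the 10983 windows of genes measured here. The windows of *Nfkbia*, *Nfkbie* and *Rel*, the 3 members with the lowest p in the comparison, are given below because they show where the element sits in 2 inhibitors and in 1 subunit; they are on the strand of the gene, 5′ to 3′ and end next to the start, and capitals mark the κB matches. That of *Nfkbia* is chr12:55492648-55492897 (minus strand), that of *Nfkbie* chr17:45555450-45555699 (plus strand) and that of *Rel* chr11:23770970-23771219 (minus strand).
Nfkbia: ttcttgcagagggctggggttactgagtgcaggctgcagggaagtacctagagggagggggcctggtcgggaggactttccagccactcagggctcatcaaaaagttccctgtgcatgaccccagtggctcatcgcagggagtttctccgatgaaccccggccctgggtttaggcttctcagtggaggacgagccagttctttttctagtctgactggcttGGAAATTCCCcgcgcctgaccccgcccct
Nfkbie: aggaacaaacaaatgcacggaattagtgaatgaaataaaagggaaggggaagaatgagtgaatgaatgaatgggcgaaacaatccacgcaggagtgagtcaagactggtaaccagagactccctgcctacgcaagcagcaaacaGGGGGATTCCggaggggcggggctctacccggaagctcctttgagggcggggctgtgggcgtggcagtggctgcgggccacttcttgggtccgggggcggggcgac
Rel: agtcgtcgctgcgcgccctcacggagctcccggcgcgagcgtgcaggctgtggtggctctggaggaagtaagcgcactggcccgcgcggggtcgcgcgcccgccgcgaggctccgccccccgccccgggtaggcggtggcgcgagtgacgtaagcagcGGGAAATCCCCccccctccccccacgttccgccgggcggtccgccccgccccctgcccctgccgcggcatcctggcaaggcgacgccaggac
The match of *Nfkbia* lay 29 to 20 bases before the start and that of *Nfkbie* 106 to 97 bases before it. *Rel* had 2 matches that overlap, 92 to 83 and 91 to 82 bases before the start, printed as 1 run of capitals. A match is a sequence feature only, and binding was not measured here.

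Of the 3 subunits with an activation domain, *Rela* was the most abundant and lay above 79.5% of all genes. It encodes the main partner in the classical dimer and is largely made at a constant rate. Its level was 6.34 to 6.80 with DMSO (median 6.59) and 6.39 to 6.69 with thymol (median 6.50). The thymol libraries lay wholly within the DMSO range. The change was -0.033 ± 0.082 (log2, SE), with a 95% interval of -0.20 to 0.13 that spans 0.872 to 1.10 times the DMSO level (limma, adjusted p = 0.944).

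*Rel* and *Relb* had lower means with thymol and did not pass the test. *Rel*, which encodes c-Rel, a subunit prominent in lymphoid and myeloid cells, ranged from 3.73 to 4.34 with DMSO (median 4.15) and from 3.36 to 4.07 with thymol (median 3.79). All 6 thymol libraries were below the DMSO mean and 3 were below the lowest DMSO library, while the other 3 overlapped the control range. The log2 difference was -0.32 ± 0.17 (95% interval -0.67 to 0.024; limma, adjusted p = 0.476), on 64 to 144 reads per library. *Relb*, the subunit of the alternative pathway, ranged from 4.07 to 4.41 with DMSO (median 4.22) and from 3.59 to 4.23 with thymol (median 4.05). Again 3 thymol libraries were under the whole control range, the lowest of them being thymol replicate 5. Its difference was -0.24 ± 0.16 (95% interval -0.55 to 0.075; adjusted p = 0.611).

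The precursor genes had slightly higher means with thymol, within the spread between libraries. *Nfkb1*, which gives the p50 partner of RelA, ranged from 4.84 to 5.29 with DMSO and from 4.94 to 5.24 with thymol. *Nfkb2*, which gives the p52 partner of RelB, ranged from 5.07 to 5.46 with DMSO and from 5.29 to 5.57 with thymol. The thymol range of *Nfkb1* lay within its DMSO range. For *Nfkb2* the groups overlapped, and 1 thymol library lay above every DMSO library. The differences were 0.055 ± 0.11 for *Nfkb1* (95% interval -0.17 to 0.28; limma, adjusted p = 0.928) and 0.080 ± 0.10 for *Nfkb2* (-0.13 to 0.29; adjusted p = 0.856). The count of 0 subunits past the threshold was the same by limma with voom weights on the recovered reads. At an unadjusted p under 0.05 the count of subunits was 0 in both of these fits, 1 by the exact permutation test and 2 without the variance trend.

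Among the other inhibitors, *Nfkbib* and *Nfkbie* encode IκB proteins of the cytoplasm. *Nfkbib*, whose product is replaced more slowly than IκBα, ranged from 5.53 to 5.92 with DMSO and from 5.29 to 6.00 with thymol. The thymol libraries enclosed the control range on both sides. Its difference was -0.045 ± 0.10 (95% interval -0.25 to 0.16; limma, adjusted p = 0.939). *Nfkbie*, an inducible IκB gene, ranged from 2.42 to 3.71 with DMSO (median 3.49) and from 2.32 to 3.45 with thymol (median 2.88). DMSO replicate 1 was among the lowest of all 12 libraries. The ranges overlapped, while 5 of 6 thymol libraries lay below the DMSO mean and 1 lay below every DMSO library. DMSO replicates 2, 3 and 4 lay above every thymol library. The difference was -0.42 ± 0.25 (95% interval -0.91 to 0.080; limma, adjusted p = 0.548). It rested on 30 to 103 reads per library, and the interval spans 0.531 to 1.06 times the DMSO level.

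*Nfkbiz* and *Tnfaip3*, which act differently from the cytoplasmic IκB proteins, had higher means with thymol and did not pass the test. *Nfkbiz* encodes IκBζ, a nuclear protein that can also serve as a cofactor for genes such as *Il6*. It ranged from 5.23 to 5.60 with DMSO (median 5.38) and from 5.27 to 5.73 with thymol (median 5.54), and 2 thymol libraries lay above every DMSO library. The difference was 0.14 ± 0.10 (95% interval -0.063 to 0.35; limma, adjusted p = 0.656). *Tnfaip3* encodes the ubiquitin-editing enzyme that acts above the IκB kinase. It was the least abundant member, above only 1.56% of all genes, with a range of 0.50 to 2.49 in DMSO (median 2.12) and 1.22 to 3.48 in thymol (median 2.27). DMSO replicate 5 was the lowest library with 7 reads and thymol replicate 6 the highest, and the groups overlapped over most of their range. The difference was 0.48 ± 0.35 (95% interval -0.22 to 1.18; limma, adjusted p = 0.666). At 7 to 59 reads per library the interval spans 0.856 to 2.27 times the DMSO level. The difference was 0.21 without DMSO replicate 5, 0.25 without thymol replicate 6 and 0.15 with 10 CPM added before the logarithm.

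**Figure D2:**
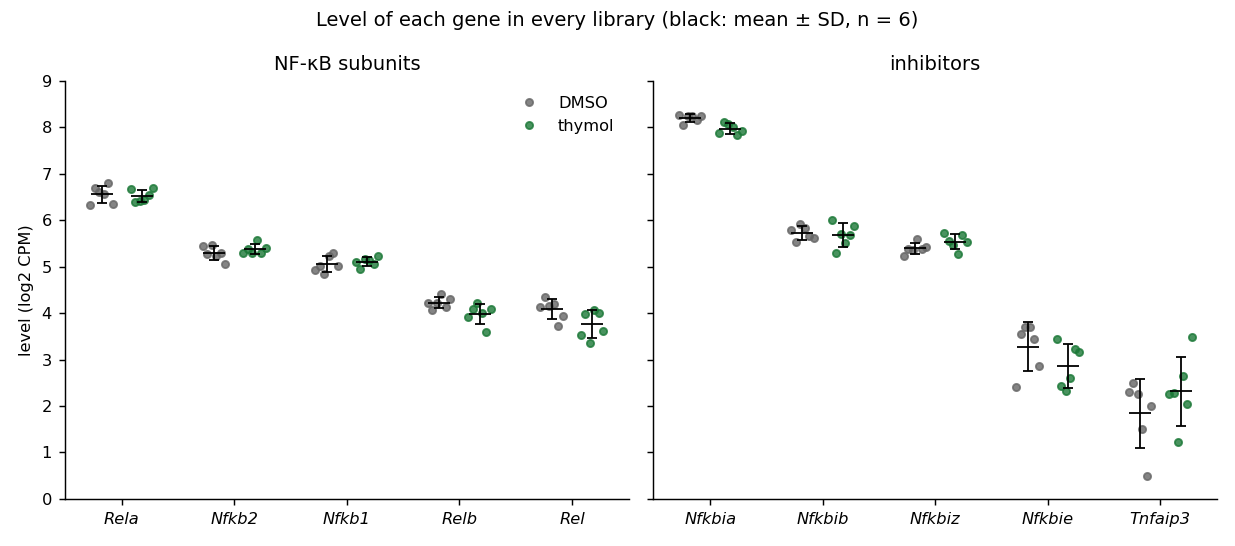
Levels of the 10 genes in each library. The y axes are log2 CPM, each point is 1 library (DMSO or thymol, n = 6 each) and black marks are group means with SD; for *Nfkbia* 4 of 6 thymol points are under the lowest DMSO point.

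**Figure D3:**
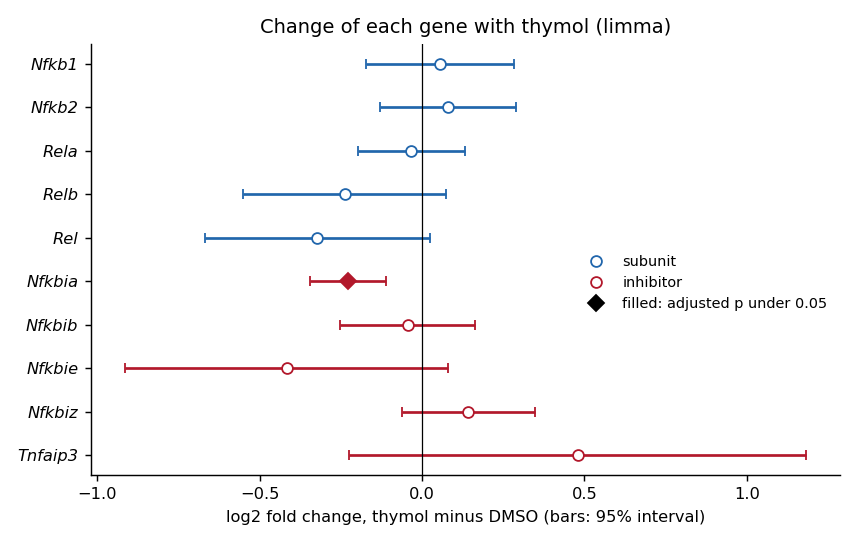
Change of each subunit and inhibitor. The x axis is the log2 fold change (thymol minus DMSO), points are estimates and bars are 95% intervals from limma; the filled point has an adjusted p under 0.05, and the interval of *Nfkbia*, -0.35 to -0.11, is the only one of the 10 that leaves out 0.

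The order of levels in DMSO was *Nfkbia*, *Rela*, *Nfkbib*, *Nfkbiz*, *Nfkb2*, *Nfkb1*, *Relb*, *Rel*, *Nfkbie* and *Tnfaip3*. The inhibitor gene *Nfkbia* stood 1.65 log2 units above *Rela*, its main target, and *Rela* stood 0.83 above *Nfkbib*, with no overlap of their DMSO ranges. *Nfkbib* was above *Nfkbiz*, and *Nfkbie* above *Tnfaip3*, in 6 of 6 DMSO libraries (by 0.33 and 1.44 on average), although their ranges over libraries overlapped. The ranges of *Nfkbiz*, *Nfkb2* and *Nfkb1* also overlapped from each to the next, and the order held in 4 of 6 and 5 of 6 DMSO libraries, so these neighbours were not separated in every library. *Relb* was above *Rel* in 5 of 6. Averaged within a library, the 5 subunits had 5.04 ± 0.064 (log2 CPM) with DMSO and 4.95 ± 0.064 with thymol, and the 5 inhibitors had 4.89 ± 0.17 and 4.88 ± 0.23 (SD, n = 6 each). The level of *Nfkbia* minus that of *Rela* was 1.36 to 1.93 with DMSO and 1.22 to 1.74 with thymol, so the groups overlapped. These averages are descriptions and were not tested.

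**Figure D4:**
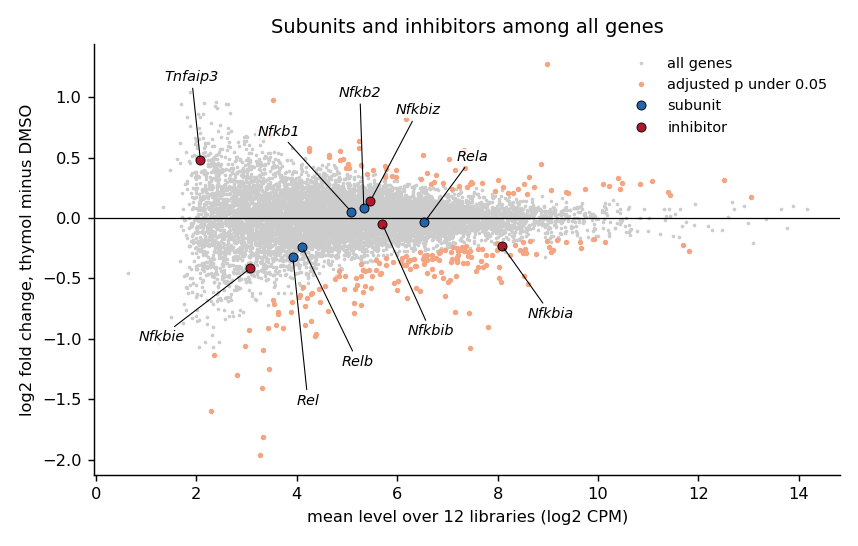
The 10 genes among all genes measured. The x axis is the mean level over 12 libraries (log2 CPM) and the y axis the log2 fold change (thymol minus DMSO); grey points are all genes, orange points the 238 past the threshold, and of the labelled members only *Nfkbia*, at -0.23, lies among the latter.

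Over the 45 pairs of members, correlations of the deviations from the group means (n = 12 libraries) had a median Pearson's r of 0.0035, and 23 of 45 were above 0. By permutation of r within groups, 6 pairs had p under 0.05 and 0 pairs did after Benjamini-Hochberg adjustment over the 45. By Pearson's r the pair with the lowest p was *Rela* and *Nfkbie* (r = 0.83, permutation p = 0.0038, adjusted 0.098; Spearman's rho = 0.69, permutation p = 0.023, adjusted 0.26; r = 0.73 without the 2 libraries farthest from the median). Next came *Relb* and *Nfkbia* (r = 0.78, permutation p = 0.0044, adjusted 0.098; rho = 0.74, permutation p = 0.012, adjusted 0.21; r = 0.68 without 2 libraries). By Spearman's rho the pair with the lowest p was *Rela* and *Nfkbia*, which deviated in opposite directions (rho = -0.76, permutation p = 0.0066, adjusted 0.21; r = -0.67, permutation p = 0.015, adjusted 0.20; r = -0.69 without 2 libraries). The other 3 pairs were *Nfkb2* and *Nfkbiz* (r = -0.67), *Nfkbia* and *Nfkbie* (r = -0.66) and *Nfkbie* and *Nfkbiz* (r = 0.65). For each r without 2 libraries, those left out were the 2 farthest from the median of the first-named gene. Libraries extreme in the second gene alone were thus not removed.

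The rest of the pathway was examined by role. All 5 other IκB-like proteins and nuclear cofactors had lower means with thymol (median -0.19, all genes 0.0026). Against 2.22% of all genes, 1 of these 5 passed. This was *Bcl3*, a nuclear IκB-like partner of p50 and p52, with 5.08 ± 0.29 in DMSO and 4.60 ± 0.22 in thymol libraries (log2 fold change -0.48 ± 0.13; limma, adjusted p = 0.0361). It passed in 5 of 12 fits that each left out 1 library, with changes of -0.56 to -0.41, and did not pass without DMSO replicates 1, 2, 4 or 6 or thymol replicates 4, 5 or 6. The change was -0.24 between odd-numbered libraries (limma, adjusted p = 0.839) and -0.73 between even-numbered ones (adjusted p = 0.0160). *Nfkbil1* and *Nkrf* had -0.19 each (adjusted p = 0.788 and 0.874).

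Of 13 measured genes of the IκB kinase complex and the kinases above it, 1 passed, against 2.22% of all genes. *Tank*, a scaffold that binds TRAF proteins and the IKK-related kinases, fell from 5.75 ± 0.094 to 5.40 ± 0.11 (-0.35 ± 0.096; limma, adjusted p = 0.0361), and its groups did not overlap. It passed in 4 of 12 fits without 1 library, with changes of -0.37 to -0.31, and did not pass without DMSO replicates 1, 2, 3, 4 or 6 or thymol replicates 1, 2 or 5. Odd- and even-numbered libraries gave -0.26 and -0.43. *Azi2*, a related scaffold, and *Chuk*, which encodes the kinase IKKα, had -0.22 and -0.20 (adjusted p = 0.430 and 0.496).

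Of 10 measured ubiquitin ligases and proteins of IκB turnover, 1 passed, against 2.22% of all genes. *Birc3*, which encodes a ubiquitin ligase of TNF receptor signalling and is itself an NF-κB target, fell from 4.02 ± 0.25 to 3.13 ± 0.82 (-0.89 ± 0.24; limma, adjusted p = 0.0259). It passed in 6 of 12 fits without 1 library, and did not pass without DMSO replicates 2, 3, 4 or 6 or thymol replicates 4 or 5. In limma without thymol replicate 4 the change was -0.61 (adjusted p = 0.118). The value with 10 CPM added before the logarithm was -0.44, and odd- and even-numbered libraries gave -0.66 and -1.12. *Cul1*, the scaffold of the ligase that marks IκB, and *Fbxw11*, one of its substrate receptors, had 0.13 and 0.12 (adjusted p = 0.471 and 0.694).

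Of 15 measured receptor adapters and of 17 measured other negative regulators, 0 passed in limma or by voom. At an unadjusted p under 0.05 limma and voom each had 2 genes of either list. The fit without the variance trend and the exact permutation test each had 3 adapters and 2 negative regulators. In limma 11.8% of all genes had an unadjusted p under 0.05. Among the adapters *Ticam2*, *Malt1* and *Tirap* had 0.48, 0.46 and 0.32 (adjusted p = 0.442, 0.357 and 0.324). Among the negative regulators *Irak3*, an inhibitor of Toll-like receptor signalling, had -0.62 ± 0.19 (adjusted p = 0.0597), with -0.16 in odd- and -1.08 in even-numbered libraries, and *Tnip3* and *Tnip1*, partners of the *Tnfaip3* product, had -0.38 and -0.14 (adjusted p = 0.290 and 0.647).

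The last list held other transcripts that NF-κB is known to induce. Of 34 measured, 5 passed as lower and 1 as higher, 17 had an unadjusted p under 0.05, and the median change was -0.16. Over all genes 1.57% passed as lower, 2.22% passed in either direction and 11.8% had an unadjusted p under 0.05. Some of the listed genes were known to change in these libraries when the list was written, so their count is not independent evidence. Those that passed as lower were *Cxcl2*, *Ptx3*, *Cebpd*, *Il6* and *Tlr2*, the last named after its values were seen (-0.66; limma, adjusted p = 0.0078). *Ptx3*, a secreted pattern recognition protein, fell from 5.63 ± 0.17 to 5.02 ± 0.18 (-0.61 ± 0.11; adjusted p = 0.00020). The chemokine gene *Ccl4* rose from 5.55 ± 0.18 to 5.98 ± 0.22 (0.43 ± 0.10; adjusted p = 0.0078), by 0.66 between odd-numbered and 0.20 between even-numbered libraries. The difference between the target list and the members was not tested.

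**Figure D5:**
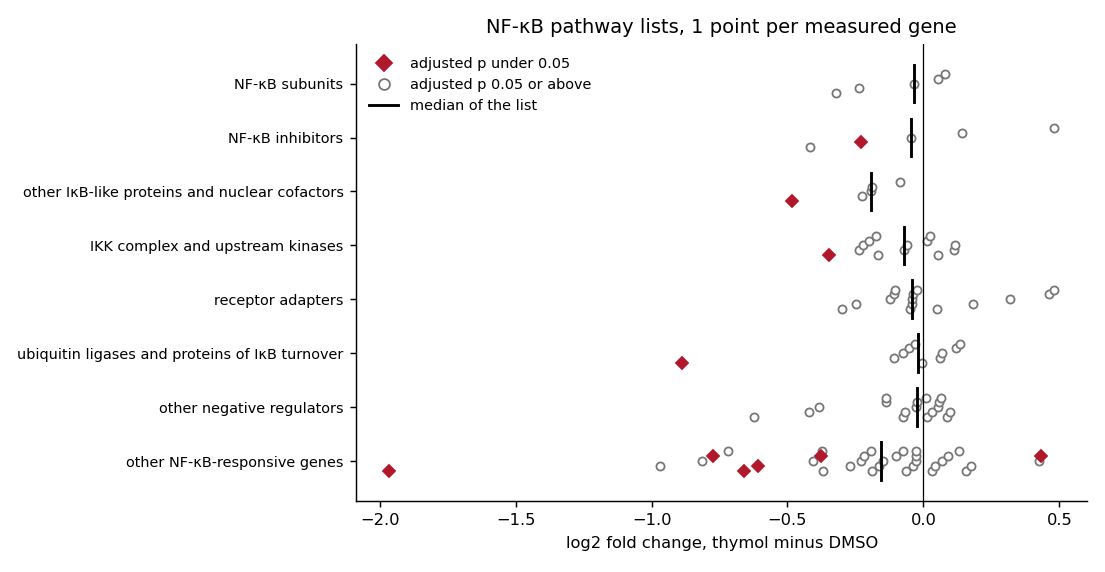
Changes of the pathway's genes by role. Each point is a gene, and the x axis is the log2 fold change (thymol minus DMSO). The rows are the subunits, the inhibitors and 6 further lists, and black bars are list medians. Filled diamonds mark an adjusted p under 0.05. It was reached by 0 of 5 subunits, 1 of 5 inhibitors and 6 of 34 target genes, against 2.22% of all genes. Some target genes were known to change in these libraries when their list was written, so their count is not independent evidence.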

How the data were processed

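Per the labels and the study's methods, the authors aligned QuantSeq reads to GRCm38 (STAR 2.5.3), counted them per gene (HTSeq 0.6.1), kept genes with at least 30 reads in 6 samples and scaled libraries by TMM. The strand setting of the counting was not given in the sources used here; *Nfkb2* and *Nfkbib* overlap exons of genes on the other strand. The deposited values are log2 CPM with a prior count, which pulls changes of genes with few reads towards 0. Whole reads were recovered from the low values: of values below 200 reads, 100% were whole to within 0.02, and the prior equalled 1.96 reads in an average library. Reads are PCR products, so depth speaks of counting error only.

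The values of 12 libraries were fitted with limma 3.58.1 (R 4.3.3; 2 groups, variance trend), with two-sided p-values adjusted by Benjamini-Hochberg over 10697 genes and a threshold of 0.05. Fold changes are thymol minus DMSO on the log2 scale with the prior. The procedure was tested on simulated data. The members and lists were chosen with earlier results of these data known. All members are named; from each further list, up to 5 genes past the threshold, or where fewer than 3 passed those with the smallest p up to 3 in all. Alternatives were voom on recovered reads, no trend, exact permutation over 924 relabellings, other pseudocounts, a filter, other scalings, a replicate block, odd and even numbers, and leaving out each library. Correlations used 100000 resamples. Promoter sequences are from RefSeq. Listed genes without a row were not analysed here.

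Of the same-numbered libraries of the 2 groups, 1 of 6 matched its own number best over genes. This was replicate 1 (correlation of deviations 0.27), and the other pairs had correlations of -0.051 to 0.11. Numbers were therefore not taken to pair libraries, and a replicate block was fitted as an alternative.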

Additional observations from a re-analysis of the deposited data

Results flagged for a closer look

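Thymol replicate 5 had 9049796 recovered reads, far above the next highest thymol library with 6585162. Its gap to the nearest library, 0.68 of the range of its group, was above Dixon's 95% critical value for 6 samples. It was the only one of 22 groups of values examined to pass, and chance flags about 1 in 20 groups. Without this library *Nfkbia* changed by -0.20 (limma, adjusted p = 0.0585). The part of depth in the results was not tested.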

How the results depend on the processing

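Members past the threshold numbered 1, and 0 without the variance trend and in odd- or even-numbered libraries alone. Leaving out 1 library gave 0 to 1. Genes past the threshold numbered 238, against 57 without the trend, 70 in odd-numbered libraries alone, and 172 to 270 without 1 library. By the exact permutation test 0 members and 0 genes passed (1175 genes at an unadjusted p under 0.05). Its smallest p gave adjusted p = 0.129 over all genes, so no gene could pass by it. With the replicate block 332 genes passed and *Nfkbia* had adjusted p = 0.00994; the block changed no member's call. In odd-numbered libraries *Nfkb2* (-0.10), *Nfkbib* (0.0059), *Nkrf* (0.43) and *Chuk* (0.022) changed sign, and in even-numbered ones *Nfkbiz* (-0.017). Without 1 library *Rela* ranged from -0.077 to 0.015, *Nfkbib* from -0.11 to 0.034, *Tnfaip3* from 0.21 to 0.70 and *Nkrf* from -0.29 to 0.013. *Irak3* passed with 10 CPM added (-0.36, adjusted p = 0.0459), without DMSO replicate 3 (-0.71, 0.0321) and in even-numbered libraries alone (-1.08, 0.0164; odd-numbered -0.16, 0.942). Without the trend *Bcl3*, *Tank*, *Birc3*, *Ccl4* and *Cebpd* had limma adjusted p = 0.186, 0.0589, 0.289, 0.133 and 0.0538. *Cxcl2*, *Ptx3* and *Il6* still passed without it (limma, adjusted p = 0.0010, 0.0167 and 0.0061). These 3 genes, *Cebpd* and *Ccl4* each passed in 12 of 12 fits that left out 1 library. *Cebpd* changed by -0.28 in odd- and -0.47 in even-numbered libraries (limma, adjusted p = 0.350 and 0.00752). Of 117 member values under the other settings, 110 kept direction and side of the threshold, 4 lost a call and 3 changed sign. All 4 lost calls were those of *Nfkbia*, the only member with a call to lose. A filter at a mean of 4 removed *Rel*, *Nfkbie* and *Tnfaip3*. The causes were not tested. *Tnfaip3* rested on 7 to 59 and *Nfkbie* on 30 to 103 reads per library.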

Other observations

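Beyond the target genes that passed the threshold, *Sod2* and *Cxcl1* had thymol values wholly below their DMSO values. Both were chosen after their values were seen. *Sod2*, the mitochondrial superoxide dismutase, ranged from 6.81 to 6.996 (log2 CPM) with DMSO and from 6.56 to 6.76 with thymol (log2 fold change -0.23; limma, adjusted p = 0.0680). *Cxcl1*, a neutrophil chemokine, ranged from 2.44 to 3.32 with DMSO and from 1.12 to 2.34 with thymol (-0.97; adjusted p = 0.0610). In all 7 of the 34 target genes had groups that did not overlap, each of them lower with thymol, against 1.68% of all genes. Some genes of that list were known to change in these libraries when it was written, so this count is not independent evidence either.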
